A study of Mus musculus with 12 samples.

Results

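Fatty acid uptake, binding and activation genes were followed through berberine treatment of 3T3-L1 adipocytes. The set named 9 genes: the binding proteins Fabp4 and Fabp5, the membrane proteins of uptake Cd36, Slc27a1 and Slc27a4, and the long-chain acyl-CoA synthetases Acsl1, Acsl3, Acsl4 and Acsl5. A probe set, a group of short probes read together as 1 signal, belonged to a member where the platform annotation gave it that single gene symbol. Whether a probe set reads 1 or several transcripts was not checked. By this rule 8 genes had 19 probe sets of the 45037 non-control probe sets on the array: 4 for Fabp4, 3 each for Cd36, Acsl3 and Acsl4, 2 each for Fabp5 and Slc27a1, and 1 each for Slc27a4 and Acsl5. The annotation table used here listed 0 probe sets for Acsl1, which is not analysed here. All 19 probe sets passed the filter on dim values, and their lowest value on any array, 6.64, lay above the detection threshold of 5.77 on the log2 scale.

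3T3-L1 is a mouse preadipocyte cell line that turns into fat-storing cells in culture. In all groups, differentiation had been started by 48 h of insulin (5 µg/ml), dexamethasone (1 µM) and 3-isobutyl-1-methylxanthine (0.5 mM), maintenance medium with fetal bovine serum and insulin had followed, and cells at days 8 to 10 had spent 12 h in medium holding 0.2% bovine serum albumin. The 4 groups of 3 arrays were given the solvent DMSO or the plant alkaloid berberine at 5 µM, the latter for 3, 6 or 12 h, and the question was how gene expression changed under the treatment. The labels give no incubation time for DMSO, so effects of berberine and of time in culture cannot be told apart, and the 3 comparisons with DMSO share the same 3 arrays. The labels do not say whether the 3 arrays of a group came from separate cultures, so the p-values reflect the spread among these arrays alone, and that spread may be technical.

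Long-chain fatty acids enter an adipocyte with the help of Cd36, the fatty acid translocase, and of the fatty acid transport proteins encoded by Slc27a1 and Slc27a4. In the cytosol they are carried by fatty acid binding proteins, of which Fabp4 is the abundant adipocyte form and Fabp5 a related form found in many tissues. Acyl-CoA synthetases join them to coenzyme A, the step that commits a fatty acid to triglyceride synthesis, membrane lipids or oxidation. The isoforms differ in place and preference: Acsl3 is found on the endoplasmic reticulum and lipid droplets, Acsl4 prefers arachidonic acid, and Acsl5 is found on mitochondria and the endoplasmic reticulum.

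Values are log2 signals, in which a difference of 1 is a doubling, and "called" means an adjusted p under 0.05 by limma over 25053 kept probe sets. The brightest kept probe set of a gene is named its leading probe set. Between 47.9% and 51.6% of the non-control probe sets reached the threshold on an array, and log2 values correlated at 0.960 to 0.968 within groups and 0.950 to 0.966 between groups. The bright spike-in control creX read 14.83 to 15.13 in DMSO and 15.07 to 15.39 in berberine, and its lowest values were those of DMSO replicates 1 and 2. The dimmer spike-in control bioB read 10.31, 10.55 and 10.44 in DMSO replicates 1, 2 and 3, and 10.46 to 10.80 in berberine. Of the adipocyte markers, 11 of 13 were tested and 10 were above the threshold on all 12 arrays, so adipocyte markers were detected throughout. All 9 tested preadipocyte and fibroblast markers were above it on all 12 arrays too, and detection alone does not set the 2 cell types apart.

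The promoters of the 3 genes whose leading probe sets were called at 12 h are shown here, since they were measured to move in opposite directions: Acsl3 and Acsl4 upward and Slc27a4 downward. RefSeq's promoter table (GRCm38.p6) held 10 promoters of 7 members, each of 300 bases, from 250 before to 50 after the start site. They lie at chr1:78657575-78657874 (plus strand) for Acsl3, chrX:142390486-142390785 (minus strand) for Acsl4 and chr2:29802384-29802683 (plus strand) for Slc27a4. Capitals mark a CCAAT box, the only one of 5 motifs searched on both strands that these 3 windows held.
Acsl3: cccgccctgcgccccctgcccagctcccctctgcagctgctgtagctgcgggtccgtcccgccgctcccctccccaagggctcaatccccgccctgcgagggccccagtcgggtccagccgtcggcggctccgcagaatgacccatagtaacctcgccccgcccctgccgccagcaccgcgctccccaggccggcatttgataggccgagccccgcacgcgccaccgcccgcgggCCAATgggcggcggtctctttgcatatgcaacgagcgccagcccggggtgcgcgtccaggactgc
Acsl4: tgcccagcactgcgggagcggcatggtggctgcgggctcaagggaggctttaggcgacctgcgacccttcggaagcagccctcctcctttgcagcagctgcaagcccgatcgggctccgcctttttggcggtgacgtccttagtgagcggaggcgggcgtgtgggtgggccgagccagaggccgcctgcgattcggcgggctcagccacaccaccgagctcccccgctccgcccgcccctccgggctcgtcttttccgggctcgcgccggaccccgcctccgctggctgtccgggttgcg
Slc27a4: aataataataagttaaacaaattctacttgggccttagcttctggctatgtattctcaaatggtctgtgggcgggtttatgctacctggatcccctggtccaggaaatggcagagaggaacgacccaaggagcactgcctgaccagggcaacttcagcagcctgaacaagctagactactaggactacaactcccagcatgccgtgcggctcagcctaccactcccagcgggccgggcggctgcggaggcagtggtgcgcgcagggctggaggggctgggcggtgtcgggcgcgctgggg
The CCAAT box of Acsl3 spans bases -15 to -11 from its start site. CCAAT occurs in 37.4% of 32851 promoters of the same length. The other motifs were the direct repeat bound by PPAR with RXR, read as 2 copies of AGGTCA with 1 base between them (0.0396% of promoters), TGATGNAAT, an element bound by ATF4 with C/EBP proteins (0.965%), ACGTG, the core bound by HIF (19.6%), and TATAAA (13.6%). GC content was 74.0% for Acsl3, 71.7% for Acsl4 and 58.7% for Slc27a4. That these letters are not in a window says nothing about whether the factor acts on the gene.

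At 12 h, Acsl4 had risen in all its probe sets, and Acsl3 in all but its dimmest, which was not called. Slc27a4 had fallen, and Fabp4 and Cd36 were split between probe sets that had fallen and others that were not called. At 3 h, 1 of the 19 probe sets was called, against 0.998% of all kept probe sets, and it was higher, with 0 lower (0.631% and 0.367% of all). At 6 h, 8 were called, against 10.5%, of which 5 were higher and 3 lower (5.30% and 5.18% of all). At 12 h, 10 were called, against 23.3%, of which 5 were higher and 5 lower (11.5% and 11.8% of all). After quantile normalization 3 were higher and 3 lower at 6 h, and 5 higher and 7 lower at 12 h. Between berberine times, 1 was called higher at 6 h than at 3 h (1.43% of all, 0.651% higher and 0.782% lower). At 12 h against 6 h, 4 were called, 3 higher and 1 lower (3.78% of all, 1.66% and 2.12% by direction). At 12 h against 3 h, 10 were called, 5 higher and 5 lower (13.7% of all, 6.04% and 7.65% by direction). Median changes of the 19 were 0.07, 0.22 and 0.12 at 3, 6 and 12 h, against 0.02, 0.01 and 0.01 over all kept probe sets. Berberine and DMSO arrays did not overlap in 2, 8 and 10 of the 19, as in 17.4%, 27.2% and 36.2% of all. Of the 10 calls at 12 h, 9 held with each array left out in turn, but only 1 of the 8 at 6 h did, that of Acsl3's leading probe set. By the F test over all 3 comparisons 12 of 19 were called, against 19.4% of all. The 19 probe sets read 8 genes, so their calls are not independent. By leading probe set, 1 of the 8 genes was called higher and 0 lower at 3 h. At 6 h it was 2 higher and 0 lower, and at 12 h 2 higher and 1 lower. Over the leading probe sets of all genes, 1.34%, 12.4% and 26.5% were called at 3, 6 and 12 h. In bulk RNA, fewer cells of a type and less RNA per cell cannot be told apart.

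**Figure D1:**
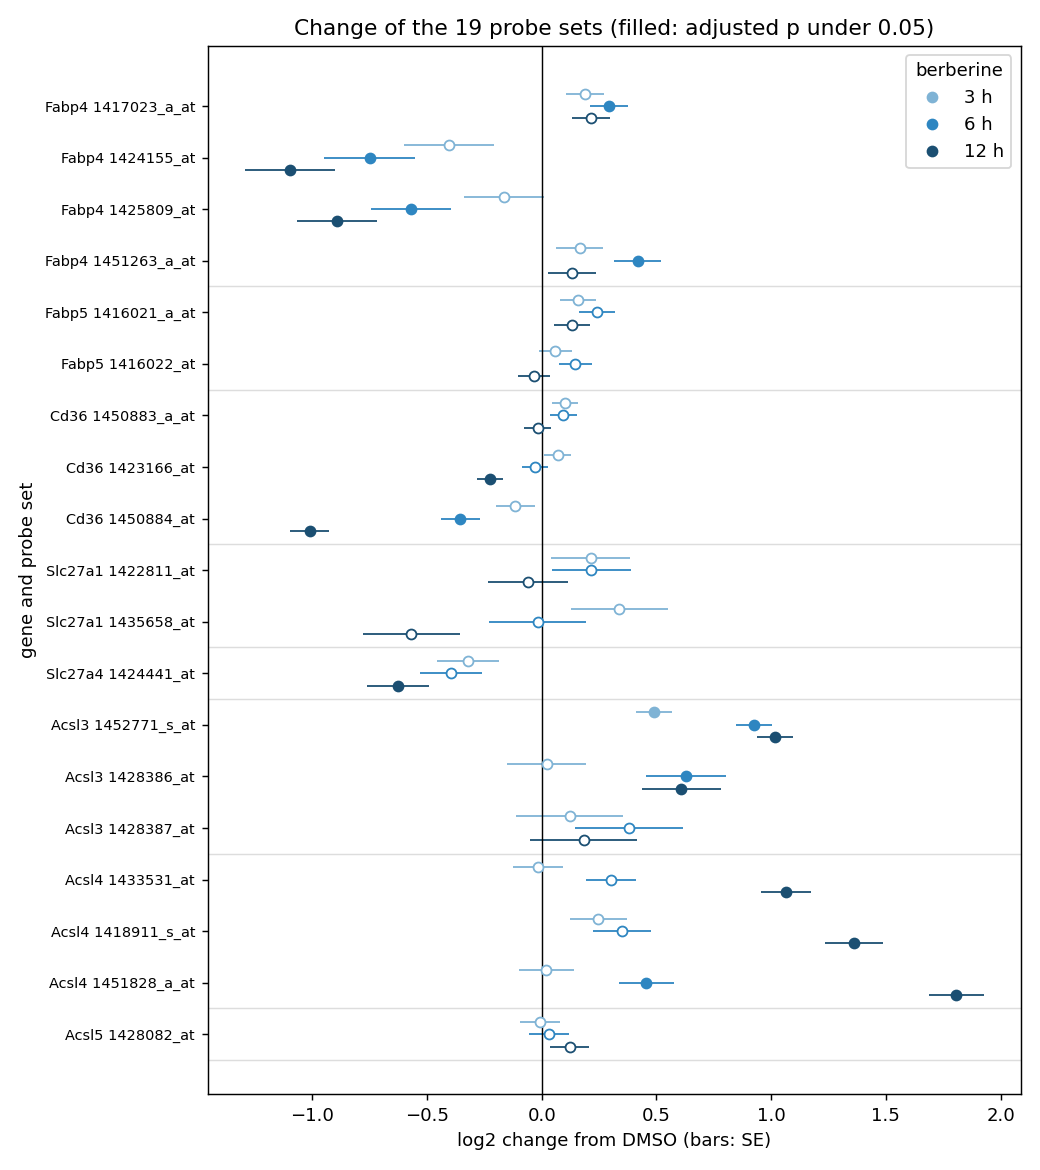
Log2 change from DMSO (x axis) of each of the 19 probe sets (y axis) after 3, 6 and 12 h of berberine, with bars for the standard error of the fit and filled points for an adjusted p under 0.05. All 3 probe sets of Acsl4 lie between 1.07 and 1.81 at 12 h. At that time the probe sets of Fabp4 lie on both sides of the zero line, and those of Cd36 lie between -1.01 and -0.02.

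Acsl3 was the only member called at 3 h. Its leading probe set, 1452771_s_at, read 10.26, 10.41 and 10.53 in DMSO, 10.82, 10.93 and 10.91 at 3 h, 11.30, 11.32 and 11.34 at 6 h, and 11.28, 11.47 and 11.49 at 12 h. Every 3 h array lay above every DMSO array, and the 6 h and 12 h arrays lay above both groups but overlapped with each other. It rose by 0.49 ± 0.08 (SE, n = 3 per group; adjusted p = 0.00448) at 3 h, a 1.41-fold increase, by 0.92 (adjusted p = 2.64e-06) at 6 h and by 1.02 (adjusted p = 1.37e-07) at 12 h, 2.02-fold. The step from 3 h to 6 h was 0.43 (adjusted p = 0.0128), and that from 6 h to 12 h was 0.09 with a 95% interval of -0.08 to 0.26 (adjusted p = 0.62). The call at 3 h held with each array left out, but was lost without the intensity trend of the variance model (adjusted p = 0.0727) and with the mean of the gene's probe sets (0.21, adjusted p = 0.399).

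The other Acsl3 probe sets had smaller changes. The middle one, 1428386_at, read 9.51, 9.25 and 8.74 in DMSO, 8.90, 9.13 and 9.54 at 3 h, 9.71, 9.76 and 9.93 at 6 h, and 9.65, 9.72 and 9.96 at 12 h. DMSO and 3 h arrays overlapped, and all 6 h and 12 h arrays lay above both groups. Its change was 0.02 at 3 h (adjusted p = 0.982), 0.63 at 6 h (adjusted p = 0.0277) and 0.61 at 12 h (adjusted p = 0.0169). The 6 h call was lost on leaving out DMSO replicate 3 (adjusted p = 0.124), 6 h replicate 2 (0.0688) or 6 h replicate 3 (0.0991), and the 12 h call without DMSO replicate 3 (0.0937) or 12 h replicate 3 (0.0755). The dimmest, 1428387_at, ranged from 6.64 to 7.37 over all arrays and was not called, with changes of 0.12, 0.38 and 0.18. Set against the leading probe set within each array, its change was smaller by 0.54 at 6 h and 0.83 at 12 h, each at an exact permutation p of 0.1, the smallest that 3 against 3 arrays allow.

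Acsl4 was called in all 3 of its probe sets at 12 h and in 0 at 3 h. Its leading probe set, 1433531_at, read 10.81, 10.63 and 10.60 in DMSO, 10.55, 10.63 and 10.80 at 3 h, 10.77, 10.98 and 11.19 at 6 h, and 11.57, 11.74 and 11.93 at 12 h. DMSO, 3 h and 6 h arrays overlapped, and the 12 h arrays stood above them all. The change at 12 h was 1.07 ± 0.11 (SE, n = 3 per group; adjusted p = 2.57e-06), 2.09-fold, after -0.02 at 3 h (adjusted p = 0.977) and 0.30 at 6 h (adjusted p = 0.0925, or 0.0317 without 6 h replicate 1). Between 6 h and 12 h it rose by 0.76 (adjusted p = 0.000886).

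The other 2 Acsl4 probe sets showed the same order of groups at 12 h. That with the largest change, 1451828_a_at, read 8.19, 8.07 and 8.13 in DMSO, 8.27, 8.23 and 7.96 at 3 h, 8.43, 8.64 and 8.68 at 6 h, and 9.85, 9.89 and 10.08 at 12 h. It was higher by 1.81 ± 0.12 (SE, n = 3 per group; adjusted p = 2.71e-08) at 12 h, 3.50-fold, and all 3 of its 6 h arrays lay above all DMSO arrays. Its 6 h change of 0.46 (adjusted p = 0.0217) was not called without DMSO replicate 2 (adjusted p = 0.0624) or 3 (0.05003), or without 6 h replicate 2 (0.0784) or 3 (0.08). The third, 1418911_s_at, had changes of 0.25 at 3 h (adjusted p = 0.461), 0.35 at 6 h (adjusted p = 0.0869) and 1.36 at 12 h (adjusted p = 7.48e-07). Within arrays the 12 h change of 1451828_a_at exceeded that of the leading probe set by 0.74 (exact permutation p = 0.1, the smallest possible), and that of 1418911_s_at exceeded it by 0.30 (exact permutation p = 0.3). All 3 calls at 12 h held with each array left out.

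Acsl5 was not called at any time. Its single probe set read 10.71, 10.71 and 10.78 in DMSO, 10.73, 10.79 and 10.66 at 3 h, 10.67, 10.85 and 10.77 at 6 h, and 11.05, 10.83 and 10.69 at 12 h. The groups overlapped at all times, and the change at 12 h was 0.12 with a 95% interval of -0.06 to 0.30 (adjusted p = 0.348).

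**Figure D2:**
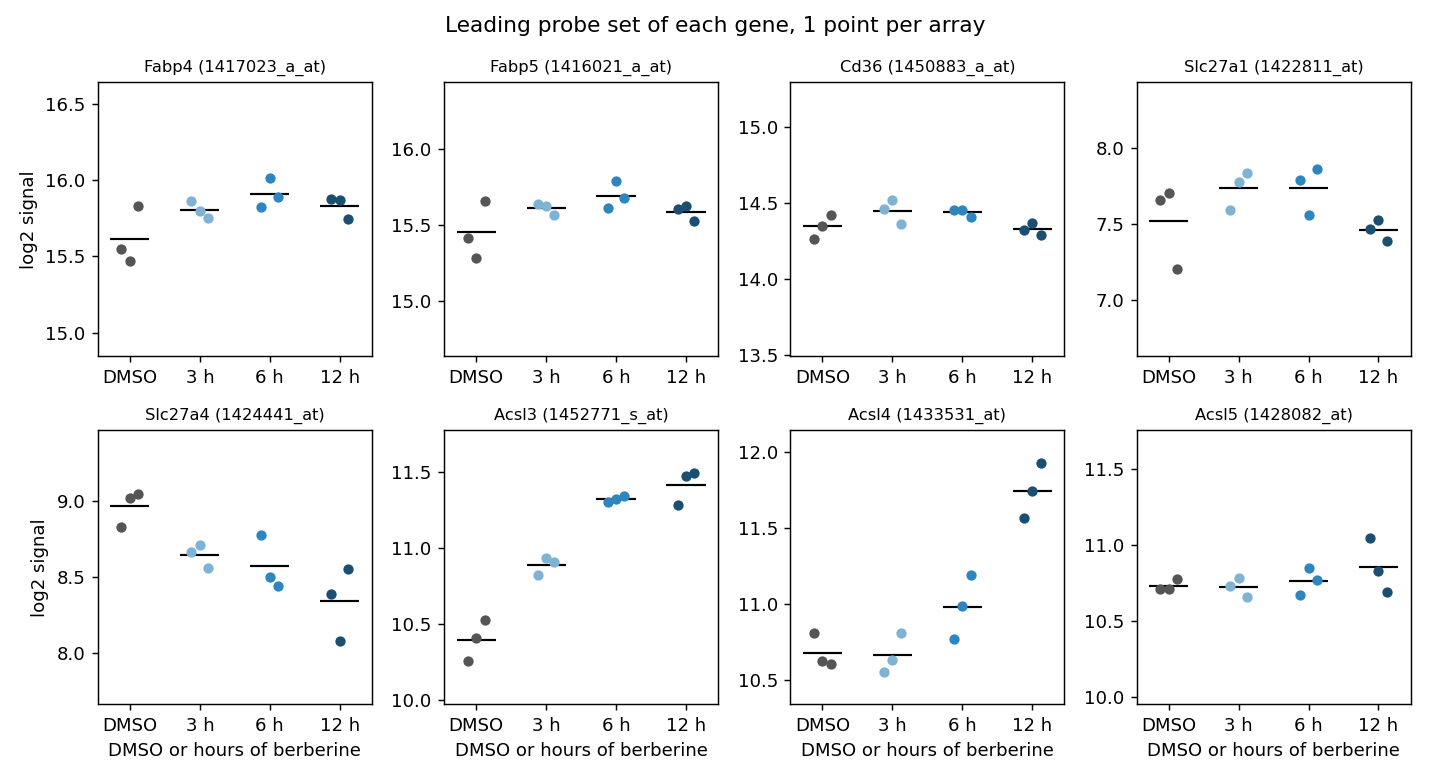
Log2 signal (y axis) of the leading probe set of each of the 8 genes, with 1 point per array and a line at the mean of each group (x axis: DMSO or hours of berberine). Acsl3 climbs from a mean of 10.40 in DMSO to 10.89, 11.32 and 11.41, Acsl4 stands apart at 12 h alone at 11.74, and Slc27a4 declines from 8.97 to 8.34.

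Slc27a4 fell at 12 h, whereas neither Slc27a1 probe set was called at any single time against DMSO. Slc27a4, a transport protein with acyl-CoA synthetase activity of its own, read 8.83, 9.02 and 9.05 in DMSO, 8.67, 8.71 and 8.56 at 3 h, 8.78, 8.50 and 8.44 at 6 h, and 8.39, 8.08 and 8.56 at 12 h. All 9 berberine arrays lay below the lowest DMSO array. The changes were -0.32 at 3 h (adjusted p = 0.346), -0.39 at 6 h (adjusted p = 0.0762, or 0.0441 without 6 h replicate 1) and -0.63 ± 0.14 (SE, n = 3 per group; adjusted p = 0.00271) at 12 h, 1.54-fold lower, a call that held with each array left out. Between 3 h and 12 h the difference of -0.30 was not called (adjusted p = 0.163).

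Slc27a1, the transport protein of fat and muscle, had 2 dim probe sets. The leading one, 1422811_at, ranged from 7.20 to 7.70 in DMSO and from 7.39 to 7.86 in berberine, with changes of 0.21, 0.22 and -0.06. The other, 1435658_at, read 7.96, 7.28 and 7.78 in DMSO, 7.81, 7.99 and 8.22 at 3 h, 7.61, 7.73 and 7.62 at 6 h, and 7.01, 6.79 and 7.51 at 12 h. Its DMSO arrays overlapped with every berberine group. Its change at 12 h was -0.57 (adjusted p = 0.0634), and it was called when DMSO replicate 2 (-0.76, adjusted p = 0.0189) or 12 h replicate 3 (-0.77, adjusted p = 0.0174) was left out, and with a stricter filter (adjusted p = 0.0477). By the F test over all 3 comparisons this probe set was called (adjusted p = 0.0299). Between 3 h and 12 h it fell by 0.91 (adjusted p = 0.00789).

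Cd36 depended on the probe set. The leading one, 1450883_a_at, was among the brightest 307 probe sets on every array and read 14.26, 14.35 and 14.42 in DMSO, 14.46, 14.52 and 14.36 at 3 h, 14.45, 14.45 and 14.41 at 6 h, and 14.32, 14.37 and 14.29 at 12 h. Each berberine group overlapped with DMSO, while the 12 h arrays lay below all 6 h arrays. Its change at 12 h was -0.02 with a 95% interval of -0.14 to 0.11 (adjusted p = 0.878). After quantile normalization that change was -0.12 (adjusted p = 0.0453), and the mean of the 3 probe sets gave -0.42 (adjusted p = 6.14e-05).

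The dimmest Cd36 probe set, 1450884_at, read 11.34, 11.14 and 11.32 in DMSO, 11.21, 11.15 and 11.10 at 3 h, 10.98, 10.88 and 10.88 at 6 h, and 10.06, 10.34 and 10.37 at 12 h. The 6 h arrays lay below all DMSO and 3 h arrays, and the 12 h arrays below all others. It fell by 0.35 at 6 h (adjusted p = 0.0129, but 0.0636 when DMSO replicate 1 and 0.0519 when 6 h replicate 2 was left out) and by 1.01 at 12 h (SE 0.08, n = 3 per group; adjusted p = 3.02e-07), 2.02-fold lower. The middle probe set, 1423166_at, had changes of 0.07, -0.03 and -0.23, the last called (adjusted p = 0.00835). Within arrays, the leading and the dimmest probe set differed in their change by 0.22 at 3 h, 0.45 at 6 h and 0.99 at 12 h, each at the smallest possible exact permutation p of 0.1.

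Fabp4 was split in the same manner, with opposite signs. Its leading probe set, 1417023_a_at, was the brightest of all non-control probe sets on 12 of 12 arrays, at 15.55, 15.47 and 15.83 in DMSO, 15.87, 15.80 and 15.75 at 3 h, 15.82, 16.02 and 15.89 at 6 h, and 15.88, 15.87 and 15.75 at 12 h. DMSO replicates 1 and 2 lay below all 9 berberine arrays, and DMSO replicate 3 lay among them. The changes were 0.19 at 3 h (adjusted p = 0.366), 0.29 at 6 h (adjusted p = 0.03) and 0.21 at 12 h (adjusted p = 0.0711). The 6 h call was lost when any 1 of DMSO replicate 1 (adjusted p = 0.116), DMSO replicate 2 (0.128), 6 h replicate 2 (0.137) and 6 h replicate 3 (0.0682) was left out, while without DMSO replicate 3 the changes at 3 h (0.30, adjusted p = 0.0364) and 12 h (0.32, adjusted p = 0.00236) were called. After quantile normalization the 6 h change is 0.00 by construction, since the probe set ranks first on every array. The spike-in creX was also lowest in DMSO replicates 1 and 2, whereas bioB was lowest in DMSO replicates 1 and 3. The part of array scale in this result was not tested.

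The second bright Fabp4 probe set, 1451263_a_at, had changes of 0.17, 0.42 and 0.13. Its 6 h call (adjusted p = 0.0153) was lost when DMSO replicate 1 (adjusted p = 0.0694) or 6 h replicate 2 (0.0803) was left out, and after quantile normalization (0.20, adjusted p = 0.265). The 2 dimmer probe sets ran the other way. Of these, 1424155_at read 9.48, 9.98 and 10.11 in DMSO, 9.05, 9.34 and 9.97 at 3 h, 9.34, 9.02 and 8.97 at 6 h, and 8.95, 8.61 and 8.72 at 12 h. The 3 h arrays overlapped with DMSO, and the 6 h and 12 h arrays lay below every DMSO array. It fell by 1.10 at 12 h (SE 0.20, n = 3 per group; adjusted p = 0.000617), 2.14-fold lower, after -0.75 at 6 h (adjusted p = 0.0217).

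The other dim Fabp4 probe set, 1425809_at, was lower by 1.85-fold at 12 h, with changes of -0.16 at 3 h, -0.57 at 6 h (adjusted p = 0.0454) and -0.89 at 12 h (adjusted p = 0.00123). Both dim probe sets kept their 12 h call with each array left out. At 6 h that of 1424155_at was lost when DMSO replicate 2 (adjusted p = 0.0698) or 3 (0.0923), or 6 h replicate 2 (0.0803) or 3 (0.0798), was left out. The 6 h call of 1425809_at ended without DMSO replicate 2 (0.131) or 3 (0.186), 3 h replicate 2 (0.0582), 6 h replicate 1 (0.0527), 2 (0.16) or 3 (0.102), or 12 h replicate 2 (0.0555) or 3 (0.051). Within arrays, the change of the leading probe set exceeded that of 1424155_at by 1.04 at 6 h and 1.31 at 12 h (exact permutation p = 0.1 each, the smallest possible). The files used here do not say what part of its transcript each probe set reads, and no single change can be given for Fabp4 or Cd36 at 12 h.

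**Figure D3:**
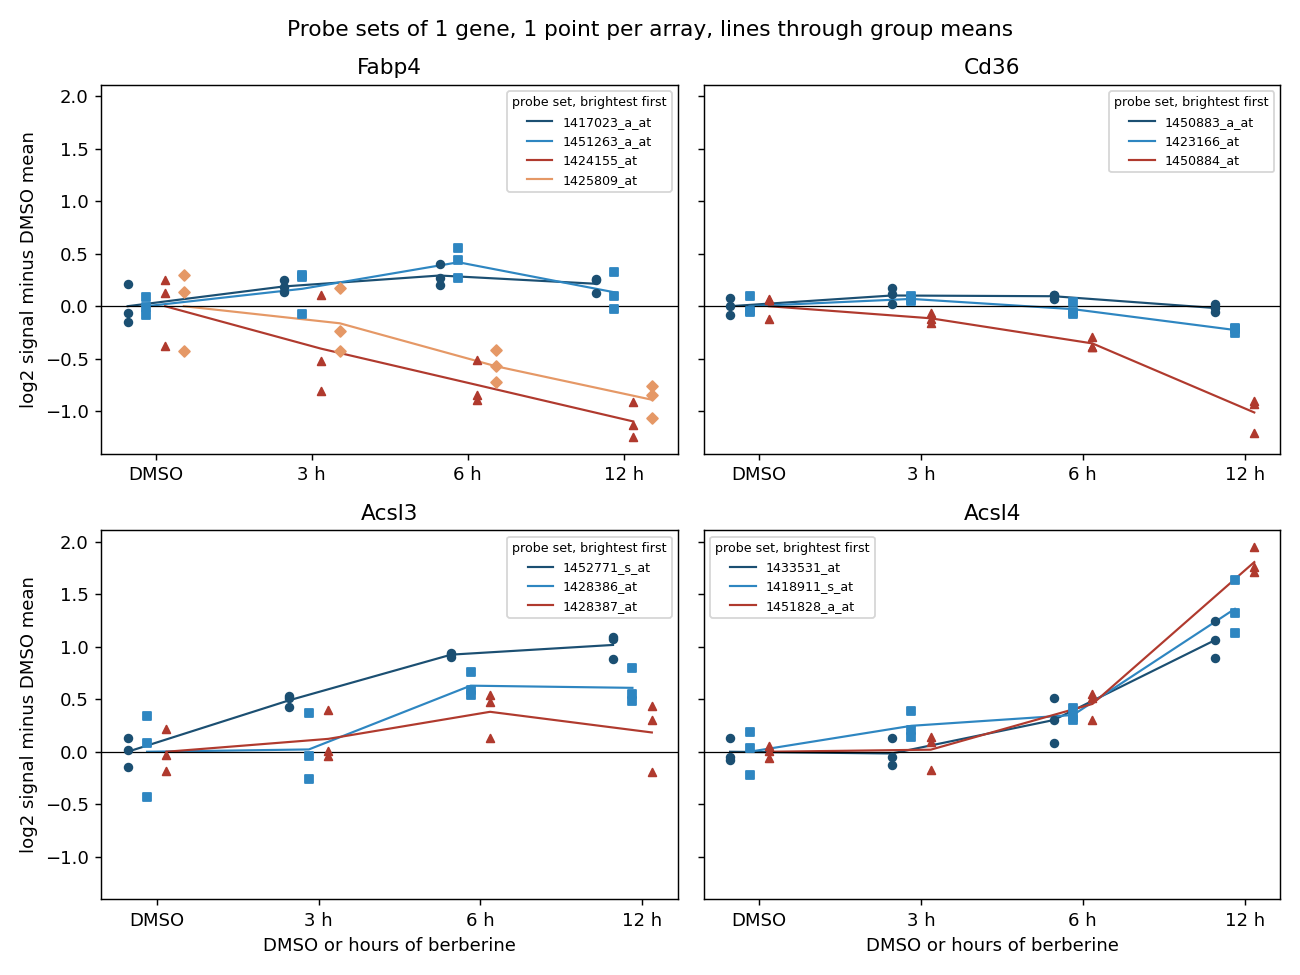
Log2 signal minus the DMSO mean of the same probe set (y axis) for every probe set of Fabp4, Cd36, Acsl3 and Acsl4, with 1 point per array and lines through group means (x axis: DMSO or hours of berberine). The 2 bright probe sets of Fabp4 stay at or above 0.13 on average in berberine while the 2 dim ones reach -1.10 and -0.89, and those of Acsl4 all climb at 12 h.

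Fabp5 was not called at any time. Its leading probe set, 1416021_a_at, ranked between 2 and 8 in brightness on every array and read 15.41, 15.29 and 15.66 in DMSO, 15.64, 15.63 and 15.57 at 3 h, 15.61, 15.79 and 15.68 at 6 h, and 15.61, 15.62 and 15.53 at 12 h. As for Fabp4, DMSO replicates 1 and 2 were the lowest arrays and DMSO replicate 3 lay among the berberine arrays. The change at 6 h was 0.24 (adjusted p = 0.0613, or 0.00284 without DMSO replicate 3), and that at 12 h was 0.13 (adjusted p = 0.257, or 0.0136 without DMSO replicate 3). The other probe set, 1416022_at, had changes of 0.06, 0.15 and -0.03. At 6 h the second of these was called without DMSO replicate 3 (0.23, adjusted p = 0.036) and, in the opposite direction, after quantile normalization (-0.14, adjusted p = 0.0371), which also gave -0.23 at 12 h (adjusted p = 0.000335).

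Across 17 pairs of probe sets of 1 gene, the signs of the 2 changes differed in 8, 7 and 5 pairs at 3, 6 and 12 h. At 3 h, 18 of the 19 probe sets were not called, so their signs say little. At 12 h the pairs that differed in sign were all of Fabp4 or Fabp5. Pairs of a gene share probe sets and are not independent, and no share over the pairs of all genes was computed. The within-array difference reached the smallest possible exact permutation p of 0.1 in 4, 10 and 11 pairs, so no pair could pass 0.05 in this design.

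The leading probe sets of the 8 genes did not share 1 profile over the 12 arrays. Fabp4 and Fabp5 correlated at r = 0.98, Acsl3 with Acsl4 at 0.72, and Acsl3 with Slc27a4 at -0.78, values that describe 12 arrays which share groups and array scale. Among genes called by the F test, that most like Acsl3 was Apobec1, an RNA-editing deaminase (r = 0.99), followed by Ppp4r2, a subunit of protein phosphatase 4, and Washc2 (0.98 each). Among those most like Acsl4 were Fnbp1l and Oser1 (0.97 each). Fabp4 was most like Scd1, the stearoyl-CoA desaturase, Rps2, a ribosomal protein, and Fth1, the ferritin heavy chain (0.97 each), and Fabp5 was most like Fth1 (0.94), Scd1 (0.93) and Eef1b2 (0.92). Slc27a4 was most like Rasl12 (0.93). For Cd36 (Spc25, 0.81), Slc27a1 (Id3, 0.74) and Acsl5 (Bccip, 0.74) the highest values were lower. The leading probe sets of Fabp4, Fabp5, Cd36, Slc27a1 and Acsl5 were not called by the F test (adjusted p = 0.0723, 0.158, 0.281, 0.488 and 0.617). Likeness to them thus describes variation that this test did not show to differ between groups.

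Other genes of the pathway, each by its leading probe set, showed changes in every functional group by 12 h, against a background of 1.34%, 12.4% and 26.5% of 12136 genes called at 3, 6 and 12 h. By direction, 0.816% of these genes were higher and 0.527% lower at 3 h, 6.30% and 6.10% at 6 h, and 12.8% and 13.7% at 12 h. Of 10 genes of uptake and fatty acid receptors 5 were tested, and 1 at 3 h, 2 at 6 h and 2 at 12 h had fallen, with 0 higher, and a median change of -0.19 at 12 h. Ffar4, a membrane receptor that senses long-chain fatty acids, went from 9.64 ± 0.24 (SD, n = 3) in DMSO to 8.63 ± 0.09, 8.18 ± 0.20 and 7.73 ± 0.12. That is a change of -1.02 (adjusted p = 0.00132), -1.46 (adjusted p = 6.89e-06) and -1.91 (adjusted p = 7.59e-08). Scarb1, a lipoprotein receptor that also takes up lipids, fell by 0.58 at 12 h (adjusted p = 0.000514). Its 6 h change of -0.39 (adjusted p = 0.0217) lost its call on leaving out DMSO replicate 1 (0.0863) or 3 (0.0727), or 6 h replicate 1 (0.0571) or 2 (0.0929).

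Of 12 other binding proteins, 6 were tested, with 0 called at 3 h, 1 higher and 1 lower at 6 h (median change 0.14), and 1 higher and 2 lower at 12 h (median change 0.00). After quantile normalization 1 was higher and 2 lower at 6 h, and 1 higher and 3 lower at 12 h. That added Dbi, an acyl-CoA binding protein, at -0.16 (adjusted p = 0.0169) and -0.31 (2.14e-05). In the main fit Dbi was at 0.12 (adjusted p = 0.265) and -0.12 (0.217), not called. At 12 h Acbd3, an acyl-CoA-binding-domain protein of the Golgi, rose by 0.47 (adjusted p = 0.000838), while Acbd4 and Acbd5, peroxisomal members of that family, fell by 0.66 (adjusted p = 4.04e-05) and 0.28 (adjusted p = 0.0103). The call of Acbd5 was lost when DMSO replicate 1 (adjusted p = 0.0548) or 12 h replicate 1 (0.0543) was left out. The 6 h calls of Acbd3 (0.31, adjusted p = 0.0338) and Acbd4 (-0.34, adjusted p = 0.0203) also hung on single arrays. Acbd3 lost its call when DMSO replicate 1 (0.0931), 2 (0.0579) or 3 (0.0841) was left out, or 6 h replicate 2 (0.16) or 3 (0.0805). Acbd4 lost its call on leaving out DMSO replicate 2 (0.0524), DMSO replicate 3 (0.0658) or 6 h replicate 2 (0.107). Of 11 other acyl-CoA synthetases, 4 were tested, with 0 called at 3 h and 6 h and 2 higher and 1 lower at 12 h (median change -0.08). Acss2, which activates acetate, rose by 0.43 (adjusted p = 0.0049). Aacs, which activates acetoacetate, rose by 0.49 (adjusted p = 0.00101) in its leading probe set, but was at -0.02 with the mean of its probe sets (adjusted p = 0.98). Acsf3, a malonyl-CoA synthetase, fell by 0.60 (adjusted p = 0.0221), a call lost on leaving out DMSO replicate 1 (0.0525) or 2 (0.0762), or 12 h replicate 2 (0.0575) or 3 (0.085).

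Acyl-CoA thioesterases, which undo activation by releasing the free fatty acid, had 9 of 13 genes tested. None was called at 3 h, 1 was higher at 6 h and 4 were higher at 12 h, with 0 lower, and the median change at 12 h was 0.30, against -0.01 over all genes. Acot2, the mitochondrial form, rose by 0.65 at 6 h (adjusted p = 0.00232) and 1.40 at 12 h (adjusted p = 3.64e-07). Them4 rose by 0.76 (adjusted p = 0.000106), Acot13 by 0.34 (adjusted p = 0.00378) and Acot9 by 0.30 (adjusted p = 0.0027) at 12 h. These 4 genes kept their 12 h calls with each array left out. Of those not called at 12 h, Acot6 (-0.64), Acot7 (-0.19) and Acot8 (-0.17) had negative changes, and Acot1 (0.11) and Acot11 (0.65) positive ones. Acot7 was called lower with a stricter filter (adjusted p = 0.0466) and with dim values raised to the threshold (0.048). Of the 9 tested, 6 were above the threshold on all 12 arrays.

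Of 12 transcription factors and coactivators of fatty acid genes, 11 were tested: 1 was higher at every time, 1 was lower at 6 h and 4 were lower at 12 h (median change -0.08). Ppargc1a, the coactivator of mitochondrial and fatty acid oxidation genes, rose by 0.73 at 3 h (adjusted p = 0.00646, but 0.0673 without the intensity trend), and at 6 h and 12 h by 0.98 (adjusted p = 9.38e-05) and 1.14 (adjusted p = 4.75e-06). Srebf1, which drives genes of fatty acid synthesis, fell by 0.39 at 6 h (adjusted p = 0.00141) and 0.74 at 12 h (adjusted p = 7.05e-07). Cebpa, a factor of adipocyte differentiation, fell by 0.59 (adjusted p = 3.06e-05) and Rxra, the partner of PPAR proteins, by 0.36 (adjusted p = 0.00562; -0.04 with the mean of its probe sets, adjusted p = 0.81) at 12 h. The fourth was Nr1h3, whose change of -0.34 (adjusted p = 0.0258) was not called without DMSO replicate 1 (0.0681), 2 (0.0567) or 3 (0.0581) or 12 h replicate 1 (0.105) or 3 (0.0686). Pparg, the main activator of Fabp4 and Cd36 in adipocytes, had changes of 0.22, 0.21 and -0.08, not called at any time (adjusted p = 0.159, 0.056 and 0.445). That at 6 h was called without 6 h replicate 3 (0.29, adjusted p = 0.014), with a stricter filter (0.0402) and with 1 probe set per gene (0.041).

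**Figure D4:**
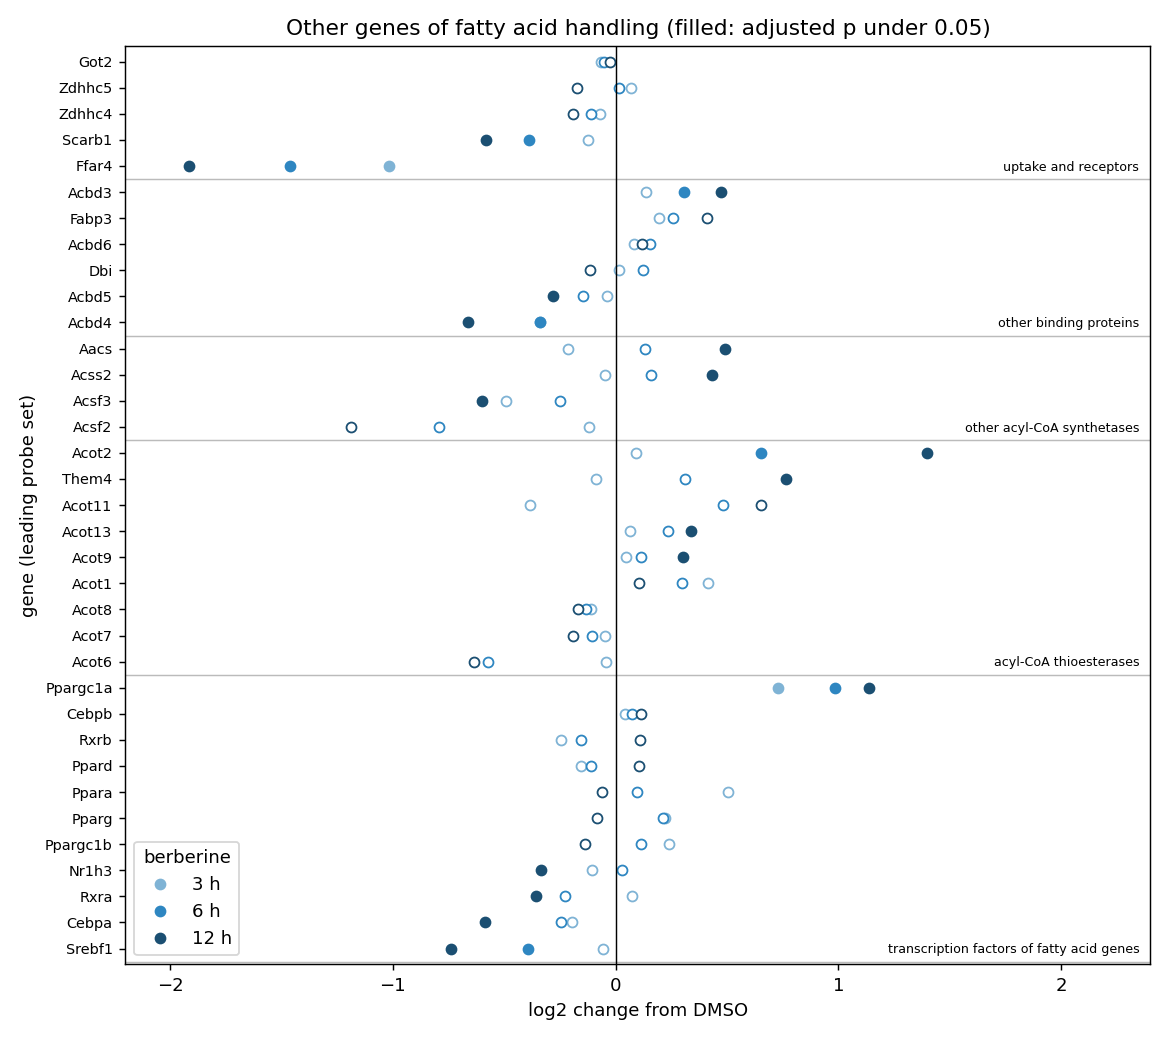
Log2 change from DMSO (x axis) of the leading probe set of each other tested gene of fatty acid handling (y axis, by functional list) after 3, 6 and 12 h of berberine, with filled points for an adjusted p under 0.05. Ffar4 reaches -1.91 and Acot2 1.40 at 12 h, and the called points of the thioesterases all lie to the right of zero.

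Markers of the cells themselves moved beside the members. Of 11 adipocyte markers tested, 2 were higher and 3 lower at 6 h, and 1 was higher and 7 lower at 12 h, with Cidec at -1.44 (adjusted p = 8.21e-10) and Lipe at -0.88 (adjusted p = 1.78e-06). After quantile normalization 0 were higher and 2 lower at 6 h, and 0 higher and 7 lower at 12 h. Before it, those higher were Lpl (0.38, adjusted p = 0.0157) and Adipoq (0.33, 0.0436) at 6 h, and Lpl (0.32, 0.0198) at 12 h. Lep had the largest fall at 12 h (-2.06, adjusted p = 0.0288), a call lost when any DMSO array was left out (0.0592 to 0.0806). At 6 h, the call was lost on leaving out any of 8 arrays for Adipoq, 3 for Lpl and 10 for Lipe. That of Lpl at 12 h was lost for 3 arrays. The summed linear signal of the 11 was 128840 to 161609 in DMSO and 128313 to 141346 at 12 h, overlapping ranges. Preadipocyte and fibroblast markers, 9 of 10 tested, had 2 higher and 2 lower at 12 h, or 0 higher and 2 lower after quantile normalization, with sums of 103139 to 121527 in DMSO and 118084 to 121801 at 12 h. Those lower were Pdgfra (-0.28, adjusted p = 0.00791) and Col1a1 (-0.35, adjusted p = 0.00535), and both calls held with each array left out. With the mean of its probe sets Col1a1 was at -0.16 (adjusted p = 0.322). Those higher were Col1a2 (0.25, adjusted p = 0.0367) and Postn (0.16, adjusted p = 0.0495). The call of Col1a2 was lost when DMSO replicate 1 or 2, 3 h replicate 2 or any 12 h array was left out (adjusted p = 0.0501 to 0.182). That of Postn was lost when any array but DMSO replicate 3 and 6 h replicate 1 was left out (adjusted p = 0.0503 to 0.16). Of 9 macrophage markers 4 were tested and 2 were above the threshold on all arrays, with sums of 767 to 954 in DMSO and 928 to 1179 at 12 h. Cd14, a receptor subunit of macrophages, was higher at 6 h (0.34, adjusted p = 0.0394) and 12 h (0.38, adjusted p = 0.0104). Its 6 h call was lost when DMSO replicate 1 or 3, 3 h replicate 1 or 2 or any 6 h array was left out (adjusted p = 0.0511 to 0.151), and its 12 h call when DMSO replicate 3 (0.0537) or 12 h replicate 1 (0.0562) was left out. Of 7 endothelial markers 2 were tested, with sums of 158 to 208 and 137 to 216. The macrophage markers Adgre1, Ptprc and Itgam and the endothelial markers Pecam1 and Cdh5 did not pass the filter. The part of these shifts in the members' changes was not tested.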

How the data were processed

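Each of the 12 arrays has 1 deposited log2 signal for each of 45101 probe sets, of which 64 are controls. The submitters' processing notes name MAS5, whose version is not given in the sources used here. Turned back to the linear scale, the signals had a 2% trimmed mean of 500.004 on all arrays, so arrays were scaled by 1 factor each, which cannot remove differences that depend on brightness. The number of arrays, 3 per group, limits the precision.

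Probe sets stayed in the fit if 3 or more of the 12 arrays reached 5.77 (a linear signal of 54.6), the median of all non-control values. This left 25053. Symbols came from the platform annotation: 34945 probe sets had 1 symbol, 932 several and 9160 none, 34741 matched RefSeq's gene table by Entrez identifier, and 0 symbols changed. Group means were fitted to all 12 arrays with limma 3.58.1 (R 4.3.3; lmFit, eBayes with an intensity trend, two-sided), with Benjamini-Hochberg adjustment over all kept probe sets. Probe sets of 1 gene were compared within arrays by exact two-sided permutation tests. Tested on simulated data for 12 h against DMSO (25053 probe sets, 200 changed, 10 runs), the fit recovered 28.1%, 56.5% and 77.7% of log2 changes of 0.5, 1 and 2, with 5.41% of calls false.

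Named were all member probe sets, up to 4 called genes per pathway list with the largest change, and for each member the 3 most alike genes called by the F test, of which 1 to 3 are printed, and 1 such gene is not reported here. Members and lists were chosen with earlier results of these data known. Alternatives covered normalization, filters, dim values, the variance model, the samples fitted, the replicate block, probe set choice and each array left out. Probe sequences and scanner files were not used here.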

Additional observations from a re-analysis of the deposited data

Results flagged for a closer look

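Several member probe sets differed between berberine times by a direct test, which needs no DMSO array for its estimate. Acsl3 1452771_s_at was higher at 6 h than at 3 h by 0.43 (adjusted p = 0.0128) and at 12 h than at 3 h by 0.53 (adjusted p = 0.00024). The former ended without 3 h replicate 1 (adjusted p = 0.0682) or 3 (0.052) or 6 h replicate 2 (0.0541) or 3 (0.0617). Acsl3 1428386_at was higher at 12 h than at 3 h by 0.59 (adjusted p = 0.0319), which ended without 3 h replicate 1 (0.154) or 2 (0.0974) or 12 h replicate 2 (0.0653) or 3 (0.122).

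The 3 Acsl4 probe sets all rose late. From 6 h to 12 h, 1433531_at gained 0.76 (adjusted p = 0.000886), 1418911_s_at 1.01 (adjusted p = 0.000246) and 1451828_a_at 1.35 (adjusted p = 1.5e-05). From 3 h to 12 h the gains were 1.08 (adjusted p = 5.14e-06), 1.11 (adjusted p = 1.4e-05) and 1.79 (adjusted p = 1.1e-07). All 6 differences held with each array left out.

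Lower at 12 h than at 3 h were Cd36 1423166_at by -0.30 (adjusted p = 0.00206) and Cd36 1450884_at by -0.90 (adjusted p = 2.74e-06), and the latter was also lower at 12 h than at 6 h, by -0.66 (adjusted p = 0.000368). The dim Fabp4 probe sets 1424155_at and 1425809_at differed between 3 h and 12 h by -0.69 (adjusted p = 0.0261) and -0.73 (adjusted p = 0.00928). The first ended without 3 h replicate 3 (adjusted p = 0.141) or 12 h replicate 2 (0.0982) or 3 (0.0698), and the second without 3 h replicate 3 (0.0574). Slc27a1 1435658_at differed between 3 h and 12 h by -0.91 (adjusted p = 0.00789). Against these, 1.43% of all kept probe sets were called between 3 h and 6 h, 3.78% between 6 h and 12 h and 13.7% between 3 h and 12 h.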

How the results depend on the processing

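Of 2376 comparisons of a member's change with its value under an alternative, 2226 kept direction and side of the threshold, 65 lost the call, 22 gained it and 4 changed sign with a call on at least 1 side. A further 59 changed sign with no call on either side, at values of -0.19 to 0.13. Kept results include those not called in either fit. The filters, the raised dim values, the variance model, the replicate block and the fit of only the groups compared left a member's log2 change as it was. So did leaving out an array of a group outside the comparison. In these alternatives the direction could not differ. The 4 were Fabp5 1416022_at at 6 h after quantile normalization (-0.14) and Fabp4 as the mean of its 4 probe sets at 6 h (-0.15), 12 h (-0.41) and between 3 h and 12 h (-0.36), a mean that includes the dim probe sets which fell. At 12 h, 9 of 10 calls held under every alternative run for them, against 1 of 8 at 6 h. These were 22 for leading probe sets and 20 for the others, which have no value in the fits with 1 value per gene.

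Without an intensity trend, 50 probe sets were called at 3 h (0 members), 1434 at 6 h (2 members), 54 between 3 h and 6 h (0 members), 308 between 6 h and 12 h, and 3128 by the F test (5 members). The cause was not tested. With only the groups compared in the fit, 5 members were called at 6 h. Without a filter, 239 were called between 3 h and 6 h. With 1 probe set per gene, which tests fewer features, 1726 were called at 6 h, 3426 at 12 h, 2150 between 3 h and 12 h and 3045 by the F test. With the mean of a gene's probe sets the counts were 114 at 3 h (0 members), 1099 at 6 h, 2760 at 12 h (5 members), 146 between 3 h and 6 h, 481 between 6 h and 12 h (2 members), 1562 between 3 h and 12 h (5 members) and 2160 by the F test (5 members).

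With 1 array left out, calls ranged from 107 to 371 at 3 h (members 1 to 2), 1544 to 2646 at 6 h (members 1 to 9), 84 to 371 between 3 h and 6 h (members 0 to 2) and 492 to 1018 between 6 h and 12 h. The lowest counts came without DMSO replicate 1 at 3 h and 6 h, without 6 h replicate 2 for the members at 6 h and between 6 h and 12 h, and without 3 h replicate 3 between 3 h and 6 h. At 12 h they ranged from 4478 to 5870 (members 10 to 11).

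Replicate numbers did not pair the arrays: deviations of same-numbered arrays correlated at -0.09 to 0.05 in 18 pairs of arrays, and 3 of 12 arrays correlated best with their own number. With the replicate number as a block, 232, 2572 and 5731 probe sets were called at 3, 6 and 12 h, 279 between 3 h and 6 h, 887 between 6 h and 12 h, 3361 between 3 h and 12 h and 4664 by the F test, with 1, 8, 10, 1, 4, 10 and 12 members, and the block changed no call of a member.

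On simulated data for 12 h, with 200 of 25053 probe sets changed, the fit recovered 28.1% of log2 changes of 0.5. The measured 12 h comparison called 5847, so the adjustment of p differs and this share may not carry over. The absence of a call alone says little about small changes, and the interval of each change tells more. Among the 9 member probe sets not called at 12 h, the main fit's intervals excluded changes of 0.5 in either direction for Cd36 1450883_a_at (-0.14 to 0.11) and Acsl5 (-0.06 to 0.30). They also did so for Fabp5 1416021_a_at (-0.03 to 0.30) and 1416022_at (-0.18 to 0.12), and for Fabp4 1417023_a_at (0.04 to 0.39) and 1451263_a_at (-0.09 to 0.35). The same held for Slc27a1 1422811_at (-0.42 to 0.31). The intervals of Acsl3 1428387_at (-0.31 to 0.68) and Slc27a1 1435658_at (-1.01 to -0.12) did not exclude such changes.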
